A study of Caenorhabditis elegans with 12 samples.

Results

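Of 13453 poly(A) peaks listed by the authors for early embryos of the nematode Caenorhabditis elegans, 660 (4.91%) carried no parent gene in the peak annotation, and these 660 peaks are described here. A poly(A) peak is a short window in which the 3′ ends of polyadenylated RNA pile up, and all of these windows spanned 101 bases of the ce10 genome build. A peak was taken as parentless where the authors' annotation named no gene as its parent, so no measured value entered the choice. The other 12793 peaks had a parent gene. Peaks that the authors had assigned downstream of a gene reached at most 1100 bases beyond the end of that gene, with a median of 244 bases. The parentless windows thus lie farther beyond a gene, ahead of one, on the strand opposite to one, or in a sequence for which the gene table lists none.

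A poly(A) tail is added where a nascent RNA is cleaved, and the tail length influences how stable an mRNA is and how well it is translated. Early embryos rely on stored maternal mRNAs, whose tails are lengthened and shortened in the cytoplasm by enzymes that RNA-binding proteins recruit. Mitochondria have their own small genome, and in mammals a separate enzyme adds short tails to their RNAs. 3′ ends outside annotated genes can belong to a longer form of a neighbouring 3′ UTR, to a transcript from the opposite strand or to a transcription unit not in the gene table used.

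The 12 libraries were made by PAT-seq, which reads each 3′ end together with its tail, from embryos of which over 90% were in the 1-cell to 24-cell stages. They form 6 groups of 2. One group was wild-type N2 without RNAi, and 4 groups were N2 worms in which RNAi by feeding was directed at mex-5, gld-2, gld-3 or pos-1. The last group, mex-6(pk440), carried the pk440 allele of mex-6, and the tables head its columns as RNAi of mex-6, where the sample titles were followed. POS-1 binds RNA through CCCH zinc fingers, the poly(A) polymerase GLD-2 extends tails in the cytoplasm, and the KH-domain protein GLD-3 is a partner of GLD-2. MEX-5 and MEX-6 are closely related CCCH zinc-finger proteins that set up the anterior-posterior axis. The labels give N2 for all groups. The labels give OP50 as the food for growth and HT115(DE3) for RNAi and repeat both for every sample, so the knockdown and the bacteria cannot be told apart. RNAi can also leave part of the transcript. The labels do not say whether replicates were separate cultures, so p-values measure only the spread between these 2 libraries per group.

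Libraries held 4520820 to 9436477 reads on peaks, of which 36.4% to 58.0% fell on peaks of ribosomal RNA genes, which left 2189284 to 4569167. The parentless peaks took 117573 to 255269 reads per library. In CPM (reads scaled to library size) after TMM scaling, the targeted gene stood at 15.4% of the N2 mean in pos-1 RNAi, 8.46% in gld-3 RNAi, 43.1% in gld-2 RNAi, 8.05% in mex-5 RNAi and 2.25% in mex-6(pk440). The related mex-6 was also low in mex-5 RNAi, at 24.0 and 14.9 CPM against 205 and 244 CPM in N2, so that group lacked most of both transcripts. The summed level of 8 maternal genes of the early embryo (among them pos-1, pie-1 and skn-1, as many as were found of 10 listed) was 1171 to 2554 CPM per library. Transcripts of these maternal genes were thus present in all 12 libraries, which alone does not tell embryo RNA from RNA of the mother. The list also holds the targeted genes pos-1, mex-5 and mex-6. The sum of 26 found sperm genes (28 listed, all of the major sperm protein family) ran from 10.9 to 215 CPM. That of 5 found yolk protein genes of the adult intestine (6 listed) ran from 17.1 to 247 CPM. Both lists were highest in N2 and gld-2 RNAi. These 2 lists mark adult cells, and their part in the results below was not tested except where a value is given.

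Position separated the parentless peaks into unlike kinds. The mitochondrial genome held 104 of them, all on the plus strand, and all peaks listed there lacked a parent because the gene table lists 0 mitochondrial genes. The 556 nuclear ones were split evenly, 278 on each strand, and made up 3.43% (chromosome IV) to 4.89% (chromosome X) of the peaks of each chromosome. Of the nuclear peaks, 188 lay downstream of a gene on the same strand, 1001 to 1997 bases beyond its end (median 1238). A further 126 lay antisense to a gene, 180 lay near a gene in some other arrangement, and 62 were far from genes, with no gene within 2000 bases. Antisense here means only that a window overlaps a listed feature on the opposite strand. Some of these features merge many names over long spans: peak65 and peak101, which start at 1049393 and 1621247 on chromosome I, lay antisense to the same feature of 41 names. Only 26 tested antisense peaks overlapped a tested feature of 1 name. Most stood alone: joined over gaps of up to 500 bases on the same strand, the 556 formed 495 clusters, of which 440 held 1 peak, and the largest held 3.

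Most parentless peaks were weak. Their median level was 4.81 CPM over the 12 libraries, against 8.18 CPM for peaks with a parent, and their median was the lower in each of the 12 libraries. The mitochondrial peaks had the highest median, 17.9 CPM, followed by those downstream of a gene at 8.82 CPM. The other nuclear classes were near 2 CPM, with medians of 2.61 CPM for antisense peaks, 2.47 CPM far from genes and 2.09 CPM near a gene otherwise. Levels within a class ranged widely, and 35 parentless peaks exceeded 100 CPM, 20 of them mitochondrial and 15 nuclear. After a filter on low counts, 616 of the 660 could be tested for expression, all 104 mitochondrial and 512 of the 556 nuclear ones.

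**Figure D1:**
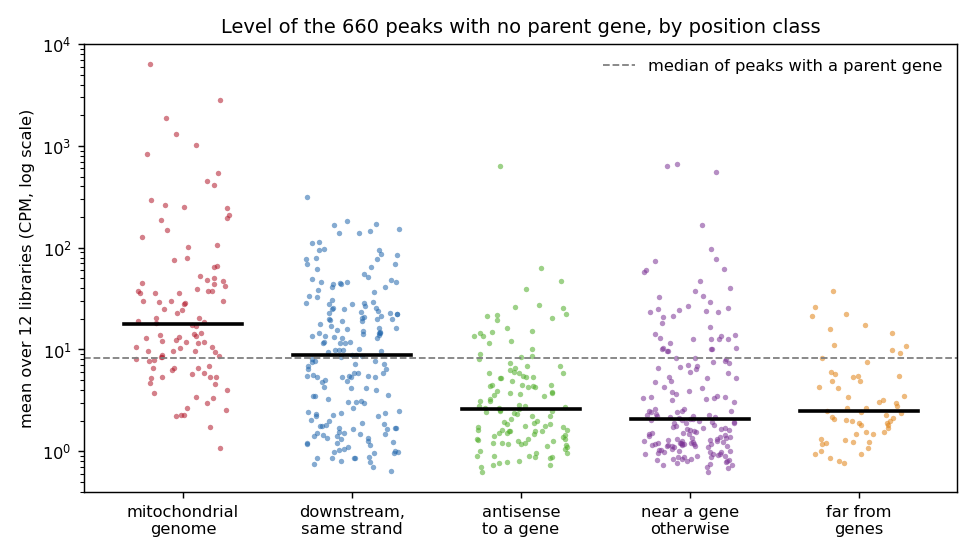
Mean level of each parentless peak over the 12 libraries (CPM, log axis) by position class; each point is 1 peak, the black line is the class median and the dashed line the median of peaks with a parent gene. Mitochondrial peaks (median 17.9 CPM) and those downstream of a gene (8.82 CPM) sit above the dashed line at 8.18 CPM, and the other classes sit below it.

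Among the strongest nuclear peaks, levels changed only moderately. The peak3907 window (chromosome IV, 4749125 to 4749225, minus strand) lies 692 bases from cyc-2.1, a cytochrome c gene, on the same strand but not downstream of it. It measured 656 and 580.1 CPM in N2, 513 and 468 in pos-1 RNAi, 512 and 621 in gld-3 RNAi, 810.1 and 869.5 in gld-2 RNAi, 910.1 and 988 in mex-5 RNAi and 530.5 and 591 in mex-6(pk440). Both mex-5 RNAi libraries and both gld-2 RNAi libraries stood above all others, and peak3907 rose in mex-5 RNAi (log2 change 0.62 ± 0.19, adjusted p = 0.035 by edgeR's quasi-likelihood test with Benjamini-Hochberg adjustment over all 13082 peaks tested, the test behind every expression p below).

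A further 2 strong nuclear peaks changed in mex-5 RNAi in opposite directions. The peak6336 window (chromosome II, 8789637 to 8789737, plus strand), 906 bases from F07H5.13, measured 463 and 360.2 CPM in N2, 603 and 582 in pos-1 RNAi, 492 and 996 in gld-3 RNAi, 645 and 853 in gld-2 RNAi, 688 and 1121 in mex-5 RNAi and 357 and 501 in mex-6(pk440). The mex-5 RNAi libraries did not overlap those of N2, and the peak rose (log2 change 1.14 ± 0.34, adjusted p = 0.028). The peak5586 window (chromosome X, 17399708 to 17399808, minus strand), 514 bases from F11C7.7 on the opposite strand, measured 573 and 663 CPM in N2 and 283 and 363 in mex-5 RNAi. The 2 mex-5 RNAi libraries were the lowest of the 12, and peak5586 fell (log2 change -0.94 ± 0.31, adjusted p = 0.046). Calls of peaks named only for their level, among them peak3907, peak6336 and peak5586, were not examined with 1 library left out.

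A peak beyond mex-6 carried the clearest difference in the set. The peak6404 window (chromosome II, 9528096 to 9528196, plus strand) starts 2280 bases beyond the annotated end of mex-6, on the same strand, and 524 bases before sra-2. It held 453 and 204 reads in the mex-6(pk440) libraries. The other 10 libraries held 18 reads together: 0 and 1 in N2, 0 and 0 in pos-1 RNAi, 9 and 2 in gld-3 RNAi, 2 and 0 in gld-2 RNAi and 1 and 3 in mex-5 RNAi. The mex-6(pk440) libraries did not overlap any other, and the most in another library was 9 reads. The ratio of mex-6(pk440) to N2, 657 reads to 1, was 737 per effective library size with an exact 95% interval of 132 to 29145, which covers counting error only.

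The peak whose parent is mex-6, 1891 bases upstream of peak6404, showed the reverse. It held 1954 and 1332 reads in N2, 1203 and 927 in pos-1 RNAi, 1633 and 938 in gld-3 RNAi, 1423 and 636 in gld-2 RNAi, 141 and 58 in mex-5 RNAi, and 59 and 15 in mex-6(pk440). It fell in mex-6(pk440) (log2 change -5.39 ± 0.36, adjusted p = 2.6e-05) and in mex-5 RNAi (log2 change -3.47 ± 0.32, adjusted p = 3.5e-05). Of the reads on both peaks, peak6404 took 88.5% (exact binomial 95% interval 85.4% to 91.1%) and 93.2% (89.0% to 96.1%) in the 2 mex-6(pk440) libraries. In the other libraries it took at most 4.92%, in mex-5 RNAi replicate 2, where the 2 peaks held few reads. The tails at peak6404 averaged 34.7 and 35.7 nt in mex-6(pk440), while tails at the mex-6 peak averaged 40.6 and 36.4 nt in N2 and 36.6 and 43.3 nt in mex-6(pk440).

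peak6404 was called in mex-6(pk440) against N2 (adjusted p = 2.8e-04) and stayed called in each of the 4 fits that left out 1 library. It was the only peak of all 13082 tested that was called higher in that comparison, 0.00764% of them.

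**Figure D2:**
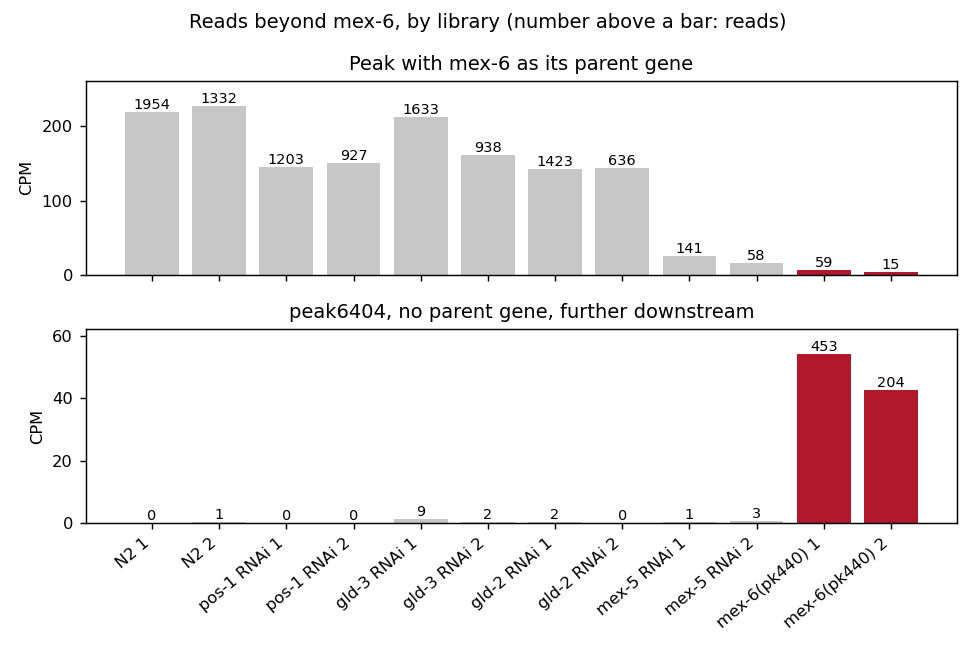
Level (CPM) in each of the 12 libraries of the peak with mex-6 as its parent gene (upper) and of peak6404 (lower), with the number of reads above each bar and mex-6(pk440) in red. The 453 and 204 reads at peak6404 in mex-6(pk440) contrast with 0 to 9 elsewhere.

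The mitochondrial genome of C. elegans carries 12 protein-coding, 2 ribosomal RNA and 22 transfer RNA genes in the Ensembl annotation of WBcel235, all on the plus strand. That annotation is of a later build than ce10, so the peaks are given by position and not by gene. The 104 mitochondrial peaks spread over the whole circle, and 39 of 103 neighbouring windows overlapped. Reads were concentrated: 12 peaks took 84.7% of the mitochondrial CPM and 1 of them 32.7%. The strongest, peak2468 (M, 9323 to 9423), was exceeded by 2 peaks of the whole table, both of ribosomal RNA. It measured 6065 and 7873 CPM in N2, 7332 and 6010.4 in pos-1 RNAi, 5457 and 4329 in gld-3 RNAi, 5885 and 6417 in gld-2 RNAi, 9702 and 10154 in mex-5 RNAi and 2923 and 3691 in mex-6(pk440). The mex-5 RNAi libraries were the highest and the mex-6(pk440) libraries the lowest of the 12, and no comparison with N2 called it.

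The next mitochondrial peaks in order of level were peak2477 (M, 10249 to 10349), peak2487 (M, 11591 to 11691), peak2403 (M, 686 to 786), peak2438 (M, 5518 to 5618) and peak2429 (M, 4169 to 4269). peak2477 measured 3049 and 4042 CPM in N2 and 2045 and 2244 in gld-2 RNAi, and fell there (log2 change -0.73 ± 0.23, adjusted p = 0.044). peak2487 measured 2087 and 3667 CPM in N2 and 1118 and 1109 in gld-2 RNAi, and also fell (log2 change -1.37 ± 0.46, adjusted p = 0.049). The adjusted p of both lay just inside 0.05, and at both peaks the gld-2 RNAi libraries overlapped those of gld-3 RNAi. peak2438 measured 825 and 947 CPM in N2 and 1589 and 1539 in mex-5 RNAi and rose (log2 change 0.82 ± 0.19, adjusted p = 0.0078).

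The strong mitochondrial peaks differed in how far replicates agreed. peak2403 measured 3017 and 782 CPM in the 2 mex-5 RNAi libraries and 1393 and 338 in the 2 gld-3 RNAi libraries, a ratio between replicates of 3.86 and 4.12. peak2438 kept within a ratio of 1.20 between the replicates of every group and peak2468 within 1.30. At peak2444 (M, 6272 to 6372), the weakest of the 12 and picked here for its ratio, the replicates of gld-3 RNAi differed 8.83-fold. The share of peak reads on the mitochondrial genome moved with the same libraries: it was 3.02% and 1.70% in mex-5 RNAi, 2.14% and 0.991% in gld-3 RNAi, 1.84% and 2.67% in N2, 1.52% and 1.66% in pos-1 RNAi, 2.18% and 1.62% in gld-2 RNAi, and 2.22% and 1.59% in mex-6(pk440). Both pos-1 RNAi libraries lay below both N2 libraries, and the other 4 groups overlapped N2. The groups did not differ beyond the spread between replicates in this share, examined after seeing the data (exact permutation test over every way to form 6 pairs, p = 0.71). In total RNA from whole embryos, fewer mitochondria and less RNA per mitochondrion cannot be told apart.

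In mex-6(pk440), weak mitochondrial peaks were lower than in N2, while the median change of the strong ones was smaller. The median log2 change was -0.96 over all 104, with 88 below 0, beside a median of 0.00 over all 13082 peaks. Over the 12 strongest it was -0.23 and over the other 92 it was -1.01. The changes of the 12 ran from -1.08 to 0.25. The strongest, peak2468, did not share the smaller change, with a mean of 6969 CPM in N2 and 3307 CPM in mex-6(pk440). The median level of those 92 was 14.0 and 16.9 CPM in N2 and 9.55 and 6.47 CPM in mex-6(pk440), with 7.08 to 20.2 CPM in the other 8 libraries. The lowest of these, gld-3 RNAi replicate 2, lay within the range of mex-6(pk440). In the other groups the median over the 104 was -0.37 in pos-1 RNAi, -0.52 in gld-3 RNAi, -0.04 in gld-2 RNAi and 0.09 in mex-5 RNAi, all against the same N2 libraries. These medians describe the list and were not tested.

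In mex-6(pk440), 2 mitochondrial peaks passed the test for a fall, where 0.0612% of all peaks did so. peak2408 (M, 1303 to 1403) measured 51.1 and 47.4 CPM in N2, 56.2 and 47.8 in pos-1 RNAi, 53.8 and 43.5 in gld-3 RNAi, 72.8 and 78.5 in gld-2 RNAi, 48.8 and 44.3 in mex-5 RNAi and 18.0 and 16.5 in mex-6(pk440), and its 2 mex-6(pk440) libraries were the lowest of the 12 (log2 change -1.51 ± 0.22, adjusted p = 0.024). peak2442 (M, 6031 to 6131) measured 11.9 and 14.1 CPM in N2 and 3.10 and 3.55 in mex-6(pk440) (log2 change -1.97 ± 0.29, adjusted p = 0.024). Each lost its call whichever of the 4 libraries was left out: the adjusted p rose to 0.13 and 0.12 without N2 replicate 1 or 2 and to 0.38 and 0.42 without mex-6(pk440) replicate 1 or 2 for peak2408, and to 0.1, 0.19, 0.41 and 0.35 in the same order for peak2442. DESeq2 called 20 parentless peaks in this comparison, 19 of them lower. Its share over all peaks is not given here, so this count says nothing particular to parentless peaks.

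**Figure D3:**
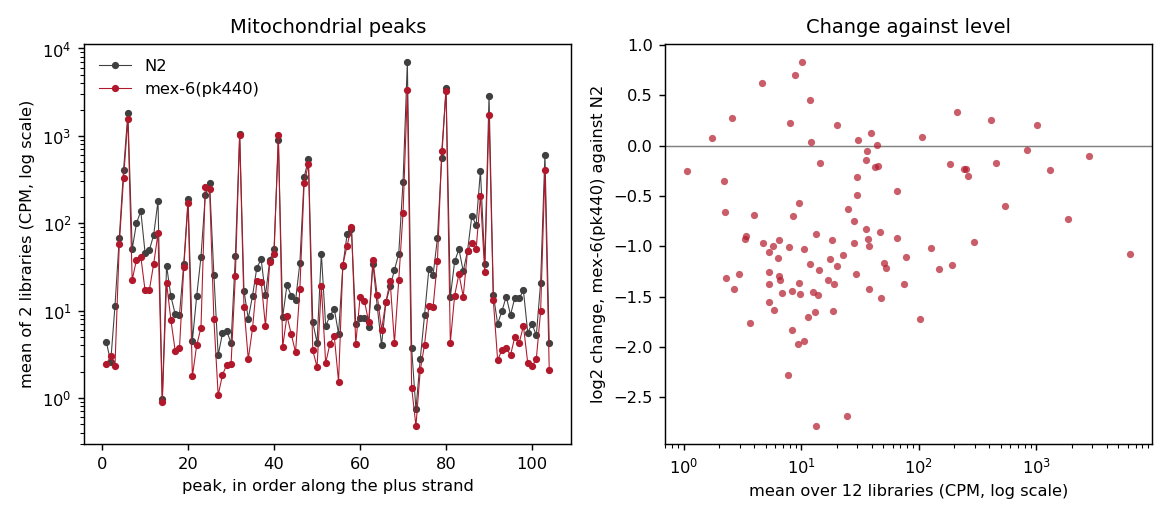
Left, mean level of the 104 mitochondrial peaks in order along the plus strand (CPM, log axis) in N2 and mex-6(pk440), each the mean of 2 libraries. Right, the log2 change between these groups against the mean level of each peak (log axis). The weaker peaks lie mostly below 0, with a median of -1.01 for the 92 outside the 12 strongest.

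Tails could be compared at 282 of the 660 parentless peaks, those with a value and at least 10 reads in every library (77 mitochondrial, 205 nuclear, of 7068 peaks in all). Mitochondrial tails were short: the library medians over these 77 peaks were 29.0 to 33.9 nt, against 40.5 to 47.0 nt for peaks with a parent. The lowest median of the parented peaks exceeded the highest of the mitochondrial peaks. Nuclear parentless peaks had library medians of 41.5 to 48.9 nt, and their median exceeded that of the parented peaks in 12 of 12 libraries, by 0.42 to 2.72 nt.

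Over all parentless peaks, the median tail was shorter than that of peaks with a parent by 4.16 ± 0.62 nt (SD over 12 libraries), shorter in 12 of 12 (exact two-sided sign-flip test, p = 4.9e-04, the smallest this test allows). All 12 libraries measure the same peaks, so this p covers the spread between libraries and not that between peaks. The 2 kinds of peak lay on opposite sides. Mitochondrial peaks alone were 12.9 ± 1.05 nt shorter, and nuclear peaks alone 1.30 ± 0.65 nt longer. This split was made after seeing the data. Against parented peaks of similar level (within the 10th to 90th percentile of the members) the differences were -4.08 nt for all and -12.7 nt for the mitochondrial peaks.

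Mitochondrial tails also varied little among peaks. Their mean tails had an SD of 3.56 nt over the 77 peaks, against 12.4 nt over the 205 nuclear ones and 11.0 nt over parented peaks. Their lower and upper quartiles were 29.4 and 33.4 nt, and the longest was 40.9 nt. peak2468, with up to 60840 reads per library, averaged 29.5 to 31.5 nt in the 12 libraries. peak2500 (M, 13176 to 13276), with the longest mitochondrial tails, averaged 39.9 to 42.3 nt. peak2410 (M, 1493 to 1593), with the shortest, averaged 17.1 to 21.0 nt. These ranges did not overlap. Within its range, peak2410 averaged 17.2 ± 0.25 nt (mean ± SD of the replicates) in mex-6(pk440), 18.0 ± 0.34 nt in mex-5 RNAi, 19.1 ± 0.08 nt in N2 and 20.8 ± 0.38 nt in gld-2 RNAi. None of these differences from N2 was called.

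Among the nuclear classes, peaks far from genes had the longest tails. The median over 16 such peaks was 46.9 to 58.0 nt per library and exceeded that of parented peaks in 12 of 12 libraries, by 6.46 to 13.6 nt. Of these 16 peaks, 6 (37.5%) averaged over 60 nt, as did 11 of 49 (22.4%) near a gene otherwise, 11 of 105 (10.5%) downstream of a gene, 2 of 35 (5.71%) antisense, and 6.63% of parented peaks. Antisense peaks had a higher median than parented peaks in 5 of 12 libraries. These counts describe peaks that reached 10 reads in every library, and the classes were compared after seeing the data, with no test.

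**Figure D4:**
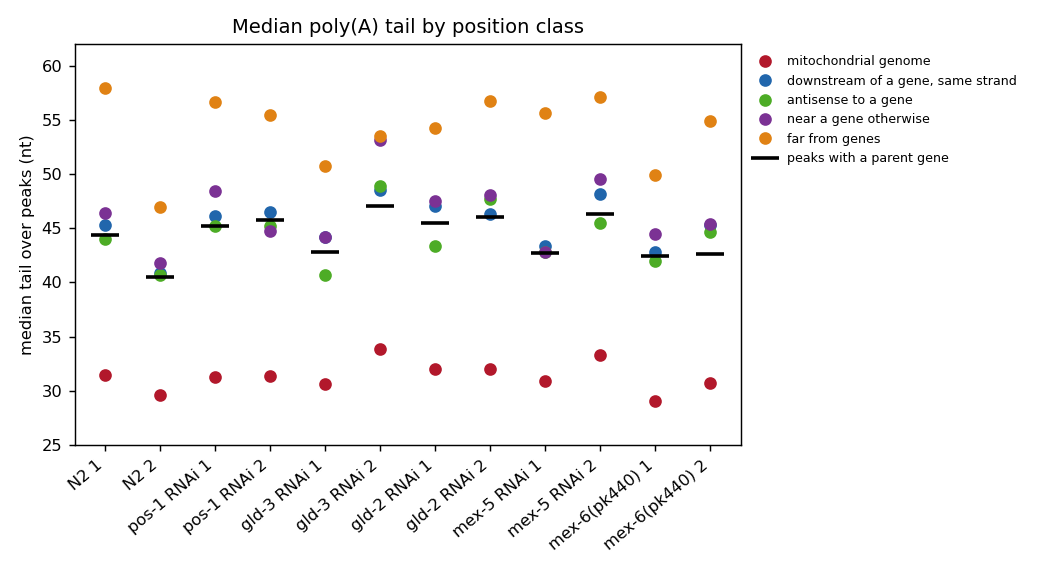
Median tail (nt) over the peaks of each position class in each of the 12 libraries; the black bars are peaks with a parent gene. Mitochondrial peaks lie at 29.0 to 33.9 nt in all libraries, and peaks far from genes lie above the black bar in 12 of 12.

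Peaks with the longest and shortest tails were picked by their N2 values and are described only. Among peaks with at least 50 reads in every library, the longest N2 tails stood at peak1047 (chromosome I, 12749455 to 12749555, plus strand), which is 8496 bases beyond toe-4 with no gene nearer, at peak2892 (chromosome II, 5689381 to 5689481, minus strand) and at peak9015 (chromosome IV, 1947978 to 1948078, plus strand). Over the 12 libraries their means ran from 66.5 to 79.4 nt, 60.3 to 75.6 nt and 54.5 to 69.1 nt. The shortest nuclear N2 tails under the same limit stood at peak6814 (chromosome X, 199123 to 199223, plus strand), 1222 bases beyond T08D2.8, and at peak3801 (chromosome IV, 2922591 to 2922691, minus strand), antisense to a feature that merges many names. peak3801 ran from 17.9 to 25.3 nt.

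peak6814 averaged 15.8 to 16.5 nt in all 12 libraries, with an SD of 0.22 nt, and its level rose in pos-1 RNAi, from 13.1 and 15.3 CPM in N2 to 30.3 and 30.9 CPM (log2 change 1.10 ± 0.23, adjusted p = 0.011). An SD under 1 nt was found for 11 of the 282 parentless peaks, 9 of them mitochondrial, and for 141 of 6786 parented peaks. The other nuclear one was peak12514 (chromosome V, 4310480 to 4310580, minus strand), 1399 bases beyond srh-192, a gene of a chemoreceptor family. It averaged 11.4 to 12.8 nt. Its neighbour peak12515 starts 63 bases away, shares 38 bases of window with it, and averaged 70.9 to 85.1 nt in the 9 libraries with a value outside mex-6(pk440), where it averaged 45.9 and 61.5 nt. The 2 overlapping windows thus differed in tail length in every library with both values.

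Few parentless tails passed the test in any comparison. With limma and adjustment over all 7068 peaks, 0 of 282 were called in pos-1 RNAi, gld-3 RNAi, gld-2 RNAi or mex-6(pk440) against N2, or between pos-1 RNAi and gld-3 RNAi. At an unadjusted p under 0.05 by limma the counts were 20, 24, 28, 8 and 18 of 282, beside 807, 1046, 1070, 257 and 636 of all 7068 peaks. Over all peaks 0%, 0%, 0.099%, 0% and 0.0707% were called. In mex-5 RNAi 1 of 282 was called, where 0.58% of all peaks were. No other tool was run on tails. The median difference between mex-6(pk440) and N2 was -0.38 nt over the parentless peaks and -0.12 nt over all peaks. For mex-5 RNAi these medians were 1.51 and 1.68 nt, for gld-2 RNAi 1.68 and 2.39 nt, for gld-3 RNAi 1.91 and 2.12 nt, and for pos-1 RNAi 1.94 and 2.56 nt. Of the 282 parentless peaks, 86 lay below N2 in pos-1 RNAi, 83 in gld-2 RNAi and 83 in gld-3 RNAi. These shifts describe the list and were not tested. N2 replicate 2 had the lowest median of the 12 libraries among parented peaks.

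The peak called in mex-5 RNAi was peak10061 (chromosome I, 211902 to 212002, minus strand), near Y48G1BL.7 on the opposite strand. Its tails averaged 25.7 and 25.8 nt in N2, 23.5 and 23.2 in pos-1 RNAi, 23.2 and 22.7 in gld-3 RNAi, 22.4 and 21.4 in gld-2 RNAi, 40.4 and 38.3 in mex-5 RNAi and 25.96 and 23.6 in mex-6(pk440). The 2 mex-5 RNAi libraries stood above all others without overlap, a difference from N2 of 13.6 ± 1.91 nt (limma, adjusted p = 0.025). Its level fell at the same time, from 50.6 and 42.6 CPM in N2 to 14.7 and 12.6 CPM (log2 change -1.76 ± 0.25, adjusted p = 4.4e-04). The tail call was lost without any 1 of the 4 libraries, with adjusted p of 0.069 and 0.1 without N2 replicate 1 or 2 and 0.085 and 0.17 without mex-5 RNAi replicate 1 or 2. It was also lost with libraries centred on their median (adjusted p = 0.052), where peak2865 and peak4771 were called in its place.

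Of the 5 comparisons with N2, mex-5 RNAi had the most calls of parentless peaks. Of 616, 63 rose and 47 fell (17.9%), while 23.5% of all peaks tested were called, 14.6% higher and 8.9% lower. The share was 20.5% for nuclear and 4.81% for mitochondrial members. All 5 mitochondrial calls were rises. By class, 24 of 177 downstream peaks rose and 11 fell, 20 of 159 peaks near a gene otherwise rose and 18 fell, 8 of 116 antisense peaks rose and 12 fell, and 6 of 60 far from genes rose and 6 fell. The count of 110 fell to 59 without N2 replicate 1, 56 without N2 replicate 2 and 54 without mex-5 RNAi replicate 2, and was 78 without mex-5 RNAi replicate 1. The 8 peaks named next from this comparison kept their calls in all 4 of these fits. Sums of further marker lists also lay outside the range of N2 in mex-5 RNAi. Genes of later tissues (muscle and cuticle, 5 found of 6 listed) summed to 235.4 and 200.2 CPM in mex-5 RNAi and 221 and 234.8 CPM in gld-2 RNAi, against 130.04 and 169.9 CPM in N2 and 58.3 to 107 CPM in the other groups. The highest 4 libraries were thus the same as for peak3907, peak5052, peak12289 and peak6333. Oocyte and eggshell genes (8 found of 10 listed) summed to 2507 and 1830.3 CPM in mex-5 RNAi and 1409 and 1335 CPM in N2. The rise was not particular to mex-5 RNAi, with 2371 and 1823 CPM in gld-3 RNAi. Zygotic genes of gut and mesoderm (6 of 6 found) summed to 44.3 and 47.5 CPM in mex-5 RNAi, against 109 and 108 CPM in N2. They were lower still in pos-1 RNAi (33.2 and 22.8 CPM), with 76.8 and 77.1 in gld-2 RNAi, 126 and 128 in gld-3 RNAi and 121 and 119 in mex-6(pk440). The part of these lists in the results was not tested.

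Of the 4 peaks with the largest rises, peak5052 (chromosome X, 6819999 to 6820099, minus strand) lies 49 bases from dhs-28, a peroxisomal dehydrogenase gene, on the opposite strand. It measured 12.01 and 9.03 CPM in N2, 16.9 and 16.6 in pos-1 RNAi, 16.01 and 15.2 in gld-3 RNAi, 32.2 and 24.0 in gld-2 RNAi, 68.2 and 77.2 in mex-5 RNAi and 11.1 and 10.8 in mex-6(pk440). Both mex-5 RNAi libraries exceeded all others, followed by both gld-2 RNAi libraries (log2 change 2.78 ± 0.25, adjusted p = 2.9e-05 for mex-5 RNAi and 1.42 ± 0.24, adjusted p = 0.0024 for gld-2 RNAi). peak12289 (chromosome V, 18714485 to 18714585, plus strand), 1462 bases from Y17D7C.2 on the opposite strand, showed the same order, with 32.8 and 29.8 CPM in N2, 36.5 and 37.1 in pos-1 RNAi, 41.3 and 49.2 in gld-3 RNAi, 84.9 and 65.2 in gld-2 RNAi, 135 and 169.9 in mex-5 RNAi and 24.3 and 27.1 in mex-6(pk440). It rose in mex-5 RNAi (log2 change 2.28 ± 0.23, adjusted p = 4.6e-05) and in gld-2 RNAi (log2 change 1.26 ± 0.22, adjusted p = 0.0028).

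peak5187 (chromosome X, 9664442 to 9664542, minus strand), 1232 bases beyond T14B1.1, measured 2.25 and 1.36 CPM in N2, 6.93 and 4.75 in gld-2 RNAi and 10.9 and 6.06 in mex-5 RNAi (log2 change 2.203 ± 0.42, adjusted p = 0.0024 for mex-5 RNAi). T14B1.1 itself was at most 0.402 CPM in any library, so this end was stronger than the gene it follows. peak12515, with the long tails beside srh-192, measured 1.68 and 0.511 CPM in N2, 6.39 and 6.99 in pos-1 RNAi, 5.99 and 10.4 in gld-3 RNAi, 6.73 and 7.02 in gld-2 RNAi, 9.82 and 5.27 in mex-5 RNAi and 1.91 and 3.75 in mex-6(pk440). N2 and mex-6(pk440) were below the other 8 libraries. It rose in mex-5 RNAi (log2 change 2.69 ± 0.54, adjusted p = 0.0033) and was also called in the 3 other RNAi groups, as given below. The srh-192 gene was at 0 CPM in 11 of 12 libraries.

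Of the 4 peaks with the largest falls, peak8025 (chromosome III, 4445434 to 4445534, minus strand) lies 1280 bases beyond the feature that holds ceh-43, a homeobox gene of the Distal-less family, and C03B8.6. It measured 10.2 and 10.7 CPM in N2, 15.3 and 21.6 in pos-1 RNAi, 10.5 and 7.43 in gld-3 RNAi, 10.5 and 11.3 in gld-2 RNAi, 2.46 and 1.05 in mex-5 RNAi and 10.9 and 10.4 in mex-6(pk440), with both mex-5 RNAi libraries below all others (log2 change -2.49 ± 0.39, adjusted p = 7.2e-04). The gene feature moved likewise, from 28.5 and 15.3 CPM in N2 to 2.28 and 0.497 CPM (log2 change -3.85 ± 0.54, adjusted p = 2.0e-04). peak5991 (chromosome II, 5410351 to 5410451, plus strand), 15 bases from EEED8.4, measured 4.94 and 4.43 CPM in N2 and 0.526 and 0.263 in mex-5 RNAi (log2 change -3.43 ± 0.51, adjusted p = 5.4e-04), the latter from 3 and 1 reads. peak4744 (chromosome X, 1386893 to 1386993, minus strand), antisense to F56C3.1, measured 6.40 and 6.14 CPM in N2 and 0.702 and 1.05 in mex-5 RNAi (log2 change -2.86 ± 0.51, adjusted p = 0.0017). F56C3.1 had 0 reads in all 12 libraries.

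The remaining fall was peak4864 (chromosome X, 3567397 to 3567497, minus strand), far from genes: 3419 bases from F59D8.3 and 5541 bases beyond T27A10.5. It measured 19.4 and 30.7 CPM in N2, 6.75 and 2.44 in pos-1 RNAi, 9.37 and 8.46 in gld-3 RNAi, 38.2 and 42.5 in gld-2 RNAi, 5.26 and 3.69 in mex-5 RNAi and 3.70 and 2.71 in mex-6(pk440). N2 and gld-2 RNAi were high and the other 4 groups low, with no overlap. It fell in mex-5 RNAi (log2 change -2.45 ± 0.41, adjusted p = 0.0012), in mex-6(pk440) (-2.92 ± 0.42, adjusted p = 0.024), as well as in pos-1 RNAi (-2.40 ± 0.40, adjusted p = 0.0046) and under gld-3 RNAi (-1.48 ± 0.38, adjusted p = 0.037). Yolk protein genes, the list for adult intestine, were likewise higher in N2 and gld-2 RNAi than in the other 4 groups: their sum was 133 and 229 CPM in N2, 238 and 247 in gld-2 RNAi, 45.9 and 17.1 in pos-1 RNAi, 72.6 and 68.7 in gld-3 RNAi, 36.2 and 31.1 in mex-5 RNAi and 42.0 and 30.9 in mex-6(pk440). Their part in the result was not tested. The calls in mex-5 RNAi and pos-1 RNAi held without any 1 library. The call in gld-3 RNAi ended when N2 replicate 2 was dropped (adjusted p = 0.27), gld-3 RNAi replicate 1 (0.071) or 2 (0.17), and that in mex-6(pk440) with N2 replicate 2 dropped (0.17), mex-6(pk440) replicate 1 (0.38) or 2 (0.42).

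In gld-2 RNAi the count was similar. Of 616, 46 rose and 52 fell (15.9%), where 21.2% of all peaks were called. Of 116 antisense peaks, 16 fell and 3 rose, and of 159 near a gene otherwise, 18 rose and 11 fell. Among downstream peaks 15 of 177 rose and 19 fell. Over all peaks 11.5% rose and 9.72% fell. The count of 98 became 43 and 35 without N2 replicate 1 or 2, and 37 and 48 without gld-2 RNAi replicate 1 or 2.

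Among the named falls in gld-2 RNAi was peak10873 (chromosome I, 9334795 to 9334895, minus strand), 1062 bases beyond lin-41, which encodes a TRIM-NHL RNA-binding protein of the oocyte. It measured 11.6 and 11.6 CPM in N2, 7.95 and 11.7 in pos-1 RNAi, 11.6 and 5.87 in gld-3 RNAi, 1.81 and 1.58 in gld-2 RNAi, 26.1 and 15.8 in mex-5 RNAi and 16.6 and 17.5 in mex-6(pk440). The gld-2 RNAi libraries were the lowest and those of mex-6(pk440) and mex-5 RNAi the highest (log2 change -2.74 ± 0.42, adjusted p = 0.0014 for gld-2 RNAi). The lin-41 gene fell too, from 8.03 and 7.94 CPM in N2 to 2.04 and 1.77 CPM (log2 change -2.03 ± 0.39, adjusted p = 0.0031). Oocyte and eggshell genes were lower in gld-2 RNAi too, with a sum of 1409 and 1335 CPM in N2 and 402 and 389 CPM in gld-2 RNAi. Their sum was 1134 and 925 CPM in pos-1 RNAi, 2371 and 1823 in gld-3 RNAi, 2507 and 1830 in mex-5 RNAi and 1453 and 1413 in mex-6(pk440). It was thus raised in gld-3 RNAi, where peak10873 was not. The part of these genes in the result was not tested. peak3921 (chromosome IV, 5011025 to 5011125, minus strand), antisense to the piRNA gene 21ur-10115, measured 8.76 and 8.69 CPM in N2 and 1.31 and 1.13 in gld-2 RNAi (log2 change -2.80 ± 0.40, adjusted p = 9.8e-04).

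The other 2 named falls in gld-2 RNAi were peak5522 and peak11131. peak5522 (chromosome X, 15928549 to 15928649, minus strand), 1290 bases beyond mrp-3, an ABC transporter gene, measured 15.4 and 18.1 CPM in N2, 7.95 and 4.06 in pos-1 RNAi, 5.73 and 4.14 in gld-3 RNAi, 2.91 and 2.94 in gld-2 RNAi, 4.56 and 2.11 in mex-5 RNAi and 22.0 and 15.4 in mex-6(pk440). N2 and mex-6(pk440) were above all 8 RNAi libraries, and peak5522 fell in gld-2 RNAi (log2 change -2.51 ± 0.41, adjusted p = 0.0019), and also in mex-5 RNAi (-2.26 ± 0.41, adjusted p = 0.0019), gld-3 RNAi (-1.74 ± 0.39, adjusted p = 0.021) and pos-1 RNAi (-1.45 ± 0.38, adjusted p = 0.029). The mrp-3 gene stayed between 0.345 and 2.73 CPM and was not called in any of these. peak11131 (chromosome I, 12661781 to 12661881, minus strand), 1047 bases beyond T26E3.5, measured 4.38 and 5.45 CPM in N2 and 1.00 and 0.679 in gld-2 RNAi (log2 change -2.44 ± 0.56, adjusted p = 0.0099). The call ended when N2 replicate 2 was dropped (adjusted p = 0.056), gld-2 RNAi replicate 1 (0.062) or 2 (0.053).

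Among the rises in gld-2 RNAi, peak7697 (chromosome X, 17010129 to 17010229, plus strand) lies 1841 bases beyond the feature of mbl-1, a Muscleblind splicing regulator. It measured 10.3 and 9.55 CPM in N2, 9.64 and 8.61 in pos-1 RNAi, 20.4 and 25.6 in gld-3 RNAi, 37.3 and 49.6 in gld-2 RNAi, 9.30 and 14.5 in mex-5 RNAi and 13.0 and 19.2 in mex-6(pk440). Both gld-2 RNAi libraries exceeded all others and both gld-3 RNAi libraries came next (log2 change 2.12 ± 0.29, adjusted p = 8.5e-04 for gld-2 RNAi and 1.20 ± 0.29, adjusted p = 0.031 for gld-3 RNAi). The mbl-1 feature itself was at 0 to 0.778 CPM. peak12336 (chromosome V, 19964878 to 19964978, plus strand), 691 bases from srh-171, measured 6.74 and 6.14 CPM in N2 and 27.1 and 41.9 in gld-2 RNAi, again the highest 2 of the 12 (log2 change 2.41 ± 0.37, adjusted p = 0.0014). Tails there were long in all libraries, 57.4 to 75.3 nt. peak12515 rose (log2 change 2.53 ± 0.53, adjusted p = 0.0066), which ended when N2 replicate 2 was dropped (adjusted p = 0.059).

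peak1782 (chromosome III, 6631361 to 6631461, plus strand) lies 1925 bases from pdfr-1, a neuropeptide receptor gene, on the opposite strand. It measured 2.36 and 1.19 CPM in N2, 7.23 and 7.64 in pos-1 RNAi, 10.02 and 5.01 in gld-3 RNAi, 11.8 and 5.21 in gld-2 RNAi, 2.28 and 4.48 in mex-5 RNAi and 4.77 and 2.71 in mex-6(pk440), highest in gld-2 RNAi replicate 1 and lowest in N2 replicate 2, and the 6 libraries of pos-1, gld-3 and gld-2 RNAi all exceeded the other 6 (log2 change 2.25 ± 0.53, adjusted p = 0.012 for gld-2 RNAi, 2.002 ± 0.54, adjusted p = 0.033 for pos-1 RNAi and 2.04 ± 0.54, adjusted p = 0.041 for gld-3 RNAi). The call in gld-2 RNAi ended when N2 replicate 2 was dropped (adjusted p = 0.091) or gld-2 RNAi replicate 1 (0.15). The pos-1 RNAi call was lost without any of its 4 libraries (0.071 to 0.24), and so was the gld-3 RNAi call (0.063 to 0.27).

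In pos-1 RNAi, 27 of 616 rose and 20 fell (7.63%), where 9.83% of all peaks were called, 4.03% higher and 5.8% lower. The calls were nuclear but for 1: 10 of 177 downstream peaks rose and 5 fell, 5 of 116 antisense peaks rose and 5 fell, and 4 of 60 far from genes rose and 4 fell. The count of 47 rested on single libraries, being 20 or 4 with N2 replicate 1 or 2 dropped, and 22 or 6 with pos-1 RNAi replicate 1 or 2 dropped. The largest named fall was peak11606 (chromosome V, 6362882 to 6362982, plus strand), 1163 bases beyond a feature that holds F13H6.1 among 4 names. It measured 2.69 and 5.62 CPM in N2, 0.362 and 0 in pos-1 RNAi, 2.73 and 2.76 in gld-3 RNAi, 6.43 and 6.56 in gld-2 RNAi, 4.56 and 4.21 in mex-5 RNAi and 4.41 and 1.88 in mex-6(pk440), and pos-1 RNAi with 3 and 0 reads was below all others (log2 change -4.19 ± 0.75, adjusted p = 0.006). The adjusted p was 0.053 with N2 replicate 2 dropped, 0.057 with pos-1 RNAi replicate 2 dropped.

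The other falls in pos-1 RNAi were peak2802 and peak4406. peak2802 (chromosome II, 4727327 to 4727427, minus strand), 1191 bases from F10G7.10, measured 2.25 and 5.62 CPM in N2, 0.362 and 0.325 in pos-1 RNAi, 2.60 and 1.04 in gld-3 RNAi, 5.72 and 5.66 in gld-2 RNAi, 13.7 and 9.22 in mex-5 RNAi and 6.32 and 5.01 in mex-6(pk440). pos-1 RNAi was lowest and mex-5 RNAi highest (log2 change -3.39 ± 0.66, adjusted p = 0.0084 for pos-1 RNAi and 1.59 ± 0.45, adjusted p = 0.022 for mex-5 RNAi). Its pos-1 RNAi call was lost, with adjusted p of 0.075 with N2 replicate 2 dropped, 0.053 with pos-1 RNAi replicate 1 dropped, 0.076 with pos-1 RNAi replicate 2 dropped. peak4406 (chromosome IV, 11645574 to 11645674, minus strand), antisense to prx-2, a peroxisome assembly gene, measured 4.38 and 5.62 CPM in N2 and 1.33 and 0.488 in pos-1 RNAi (log2 change -2.36 ± 0.50, adjusted p = 0.012), a call lost with adjusted p of 0.083 with N2 replicate 2 dropped, 0.12 with pos-1 RNAi replicate 2 dropped. The prx-2 gene measured 1.31 and 2.71 CPM in N2 and 3.57 and 2.76 CPM in pos-1 RNAi and was not called there.

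Among the rises, peak4179 (chromosome IV, 8778339 to 8778439, minus strand), 246 bases from C33D9.6 and among the parentless peaks with the longest tails (70.8 to 86.0 nt), measured 4.94 and 3.58 CPM in N2, 19.9 and 15.3 in pos-1 RNAi, 18.7 and 23.7 in gld-3 RNAi, 14.9 and 14.3 in gld-2 RNAi, 7.54 and 15.8 in mex-5 RNAi and 6.68 and 5.63 in mex-6(pk440). N2 and mex-6(pk440) were lower than the other 8 libraries (log2 change 2.03 ± 0.35, adjusted p = 0.0054 for pos-1 RNAi and 2.29 ± 0.35, adjusted p = 0.0062 for gld-3 RNAi). Without N2 replicate 2 the adjusted p was 0.065 and 0.086. The 2 overlapping windows beside srh-192 rose together in pos-1 RNAi. peak12515 gave a log2 change of 2.49 ± 0.53, adjusted p = 0.012, with adjusted p of 0.11 with N2 replicate 2 dropped, 0.076 with pos-1 RNAi replicate 2 dropped. peak12514, the short-tailed one, measured 2.36 and 2.90 CPM in N2 and 11.8 and 9.26 in pos-1 RNAi (log2 change 2.01 ± 0.43, adjusted p = 0.012), with adjusted p of 0.086 with N2 replicate 1 dropped, 0.079 with N2 replicate 2 dropped, 0.063 with pos-1 RNAi replicate 1 dropped, 0.055 with pos-1 RNAi replicate 2 dropped.

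In gld-3 RNAi, 15 of 616 rose and 14 fell (4.71%), where 6.71% of all peaks were called, 3.4% higher and 3.31% lower. This count was the least steady: 13 without N2 replicate 1, 0 without N2 replicate 2 (78 at an unadjusted p under 0.05 by edgeR), 46 without gld-3 RNAi replicate 1 and 4 without gld-3 RNAi replicate 2. None of the 8 peaks named from it kept its call in all 4 fits. The strongest named peak, peak4754 (chromosome X, 1675218 to 1675318, minus strand), 1174 bases beyond fbxa-170, an F-box gene, measured 121 and 185 CPM in N2, 62.9 and 57.2 in pos-1 RNAi, 66.5 and 42.1 in gld-3 RNAi, 47.7 and 57.9 in gld-2 RNAi, 80.3 and 46.4 in mex-5 RNAi and 151.9 and 105 in mex-6(pk440). N2 and mex-6(pk440) were above all 8 RNAi libraries (log2 change -1.49 ± 0.33, adjusted p = 0.019 for gld-3 RNAi, -1.53 ± 0.33, adjusted p = 0.0069 for gld-2 RNAi, -1.35 ± 0.32, adjusted p = 0.021 for pos-1 RNAi and -1.26 ± 0.32, adjusted p = 0.014 for mex-5 RNAi). The gld-3 RNAi call was lost with adjusted p of 0.19 with N2 replicate 2 dropped, 0.14 with gld-3 RNAi replicate 2 dropped. The fbxa-170 gene was at 1.14 to 5.59 CPM.

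peak5961 (chromosome II, 5019401 to 5019501, plus strand), far from genes and 4125 bases beyond F59A6.2, measured 1.01 and 1.36 CPM in N2 and 3.38 and 7.43 in gld-3 RNAi (log2 change 2.18 ± 0.51, adjusted p = 0.028), with adjusted p of 0.14 with N2 replicate 1 dropped, 0.14 with N2 replicate 2 dropped, 0.21 with gld-3 RNAi replicate 2 dropped. Tails at peak5961, in the 5 libraries with a value, averaged 12.3 to 13.2 nt. peak4744 fell, to 0.911 and 2.42 CPM (log2 change -1.96 ± 0.44, adjusted p = 0.021), with adjusted p of 0.076 with N2 replicate 1 dropped, 0.11 with N2 replicate 2 dropped, 0.089 with gld-3 RNAi replicate 1 dropped. peak12515 rose (log2 change 2.77 ± 0.53, adjusted p = 0.011), with adjusted p of 0.11 with N2 replicate 2 dropped, 0.073 with gld-3 RNAi replicate 2 dropped. For peak5522 the adjusted p was 0.054 with N2 replicate 1 dropped, 0.14 with N2 replicate 2 dropped, 0.14 with gld-3 RNAi replicate 2 dropped.

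Besides peak6404, peak4864 and the 2 mitochondrial peaks, no parentless peak passed the test in mex-6(pk440). The 4 calls were 0.649% of 616, where 0.0688% of all peaks were called. An unadjusted p under 0.05 by edgeR was reached by 83 of 616, 53 of them mitochondrial, and by 1127 of all 13082 peaks. Without N2 replicate 1 the calls numbered 2, and without N2 replicate 2 or either mex-6(pk440) replicate 1, which was peak6404. Over the 5 comparisons with N2, which share its 2 libraries, 422 of 616 parentless peaks were called in none, 132 in 1, 41 in 2, 10 in 3 and 11 in 4. These numbers were counted for parentless peaks alone, with no share over all peaks beside them. A joint test of any difference among the 6 groups called 210 of 616 (34.1%), where 34.6% of all peaks were called.

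Between pos-1 RNAi and gld-3 RNAi, 3 of 616 were higher in pos-1 RNAi and 6 lower (1.46%), where 2.78% of all peaks were called, 0.359% higher and 2.42% lower. The count was 2 without pos-1 RNAi replicate 1 or gld-3 RNAi replicate 2 and 0 without pos-1 RNAi replicate 2 (46 at an unadjusted p under 0.05 by edgeR). The clearest was peak6333 (chromosome II, 8785356 to 8785456, plus strand), 1862 bases from sgn-1 on the opposite strand. It measured 11.2 and 21.6 CPM in N2, 3.13 and 4.06 in pos-1 RNAi, 13.4 and 15.4 in gld-3 RNAi, 35.5 and 31.7 in gld-2 RNAi, 49.99 and 52.7 in mex-5 RNAi and 17.9 and 21.3 in mex-6(pk440). pos-1 RNAi was below all others and mex-5 RNAi above (log2 change -2.003 ± 0.33, adjusted p = 0.0056 against gld-3 RNAi, -2.18 ± 0.33, adjusted p = 0.0041 for pos-1 RNAi against N2, 1.05 ± 0.29, adjusted p = 0.024 for gld-2 RNAi and 1.65 ± 0.29, adjusted p = 0.0016 for mex-5 RNAi). Against gld-3 RNAi the adjusted p was 0.072 with pos-1 RNAi replicate 1 dropped, 0.05 with pos-1 RNAi replicate 2 dropped. The tails at peak6333 averaged 44.5 to 59.4 nt.

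The other 6 named differences between these groups ended when single libraries were dropped. peak11606 and peak7697, whose libraries are given above, were lower in pos-1 RNAi than in gld-3 RNAi (log2 change -3.63 ± 0.78, adjusted p = 0.027 and -1.33 ± 0.29, adjusted p = 0.031). For peak11606 the adjusted p was 0.2 with pos-1 RNAi replicate 2 dropped, 0.068 with gld-3 RNAi replicate 1 dropped, 0.086 with gld-3 RNAi replicate 2 dropped, and for peak7697 it was 0.13 with pos-1 RNAi replicate 1 dropped, 0.26 with pos-1 RNAi replicate 2 dropped, 0.16 with gld-3 RNAi replicate 2 dropped. peak1610 (chromosome III, 5092222 to 5092322, plus strand), far from genes and 5702 bases beyond F54D8.8, measured 0.964 and 0.813 CPM in pos-1 RNAi and 5.34 and 3.28 in gld-3 RNAi (log2 change -2.26 ± 0.55, adjusted p = 0.049). Dropping any of the 4 libraries ended this call (adjusted p from 0.069 to 0.29).

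The 3 peaks higher in pos-1 RNAi than in gld-3 RNAi all lay near genes. peak11889 (chromosome V, 10866648 to 10866748, plus strand), 968 bases from the feature of saeg-1 on the opposite strand, measured 12.9 and 10.2 CPM in pos-1 RNAi and 2.60 and 5.18 in gld-3 RNAi (log2 change 1.60 ± 0.38, adjusted p = 0.04). Its adjusted p was 0.2 with pos-1 RNAi replicate 1 dropped, 0.13 with pos-1 RNAi replicate 2 dropped, 0.22 with gld-3 RNAi replicate 1 dropped. peak3968 (chromosome IV, 6005364 to 6005464, minus strand), 1343 bases from unc-44, an ankyrin gene, on the opposite strand, measured 16.5 and 13.5 CPM in pos-1 RNAi and 6.77 and 4.14 in gld-3 RNAi (log2 change 1.44 ± 0.32, adjusted p = 0.032). Its adjusted p was 0.17 with pos-1 RNAi replicate 1 dropped, 0.11 with pos-1 RNAi replicate 2 dropped, 0.22 with gld-3 RNAi replicate 2 dropped. peak6961 (chromosome X, 3295030 to 3295130, plus strand), 1388 bases from K09C4.2, measured 11.8 and 14.0 CPM in pos-1 RNAi and 5.60 and 4.49 in gld-3 RNAi (log2 change 1.34 ± 0.29, adjusted p = 0.027), and dropping any of the 4 libraries ended the call (adjusted p from 0.071 to 0.21). In all 3 the libraries of the 2 groups did not overlap, but the naming rule required this, so it adds nothing to the calls.

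**Figure D5:**
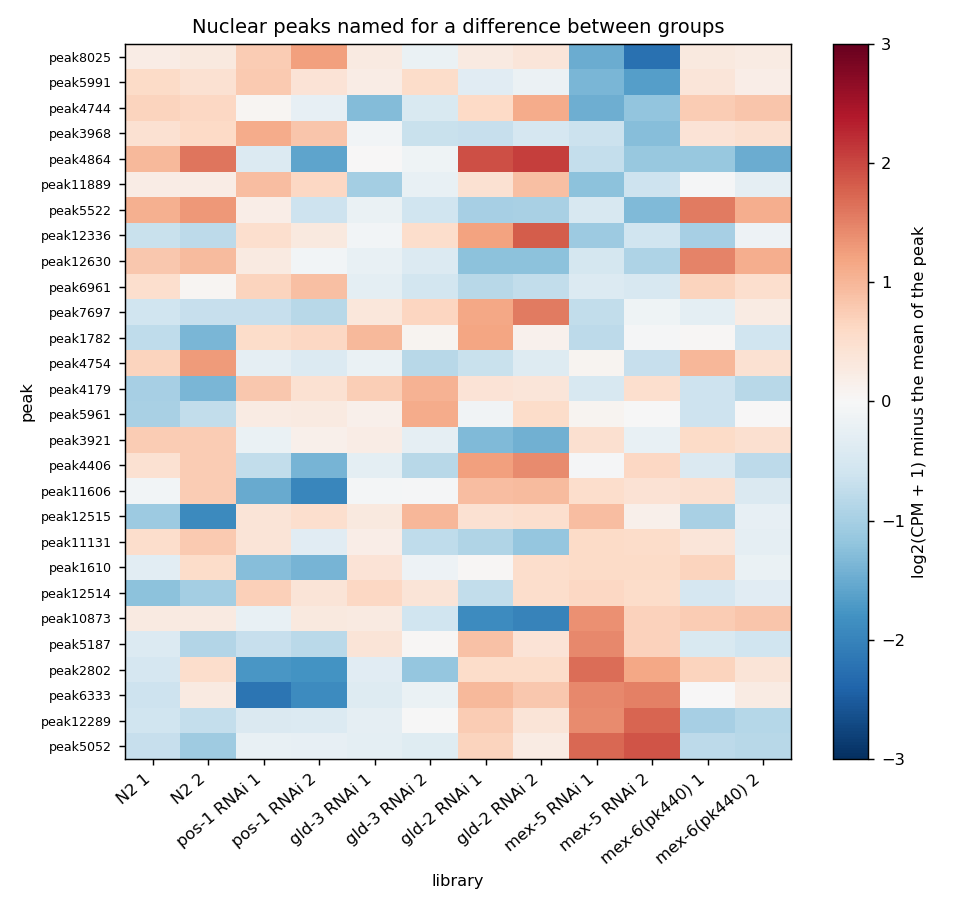
Level of 28 nuclear parentless peaks named for a difference between groups, in the 12 libraries, as log2(CPM + 1) minus the mean of the peak (red higher, blue lower). peak5052, peak12289 and peak6333 at the bottom are highest in mex-5 RNAi, and peak10873 is lowest in gld-2 RNAi.

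One further peak ranked among the first 5 nuclear ones for any difference among groups. peak12630 (chromosome V, 6290045 to 6290145, minus strand), 1399 bases beyond K12B6.9, measured 42.3 and 46.5 CPM in N2, 28.8 and 22.1 in pos-1 RNAi, 20.05 and 17.4 in gld-3 RNAi, 9.44 and 9.51 in gld-2 RNAi, 16.1 and 11.9 in mex-5 RNAi and 68.1 and 51.5 in mex-6(pk440). mex-6(pk440) was highest, N2 next, and gld-2 RNAi lowest (log2 change against N2 -2.23 ± 0.26, adjusted p = 3.5e-04 for gld-2 RNAi, -1.65 ± 0.26, adjusted p = 7.0e-04 for mex-5 RNAi and -1.24 ± 0.25, adjusted p = 0.013 for gld-3 RNAi). K12B6.9 itself was at 0 to 0.875 CPM.

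Changes of parentless peaks downstream of a gene were set beside those of that gene. For 110 of them, whose upstream feature held 1 name and passed the low-count filter, the changes of peak and gene had a Spearman correlation of 0.38 in pos-1 RNAi, 0.30 in gld-3 RNAi, 0.32 in gld-2 RNAi, 0.26 in mex-5 RNAi and 0.15 in mex-6(pk440), all against N2, and 0.49 in pos-1 RNAi against gld-3 RNAi. These are correlations across peaks within the same libraries, several peaks share 1 of the 90 genes, and the first 5 comparisons share N2. In mex-5 RNAi 21 of the 110 were called, 12 with the sign of the gene and 9 against it; the gene was itself called with the same sign for 7 and with the opposite sign for 0. In gld-2 RNAi 16 were called, 13 with the sign of the gene. The peak exceeded the gene in mean CPM for 70 of the 110.

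The share of peak reads on parentless peaks was 2.71% and 3.56% in N2, 2.43% and 2.64% in pos-1 RNAi, 3.23% and 1.94% in gld-3 RNAi, 3.43% and 2.60% in gld-2 RNAi, 3.90% and 2.47% in mex-5 RNAi, and 3.40% and 2.62% in mex-6(pk440). Both pos-1 RNAi libraries lay below both of N2, the other groups overlapped N2, and the log2 share did not differ among groups beyond the spread between replicates (exact permutation test, p = 0.84). With ribosomal RNA and mitochondrial peaks left out of both sides, the share was 1.91 ± 0.04% (mean ± SD, n = 2) in N2, 2.05 ± 0.07% in pos-1 RNAi, 2.00 ± 0.05% in gld-3 RNAi, 2.07 ± 0.04% in gld-2 RNAi, 1.89 ± 0.03% in mex-5 RNAi and 2.07 ± 0.01% in mex-6(pk440). The groups then differed (p = 0.031 by the same exact test), with N2 and mex-5 RNAi the lowest. The nuclear share of all peak reads, examined after seeing the data, gave p = 0.13 by the same exact test.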

How the data were processed

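The deposited tables give, per peak and per gene, read counts and mean poly(A) tail lengths in nt, made by the authors; per the submitters' processing notes reads were aligned to ce10 with Bowtie2 2.2.2. Per the labels' protocols, RNA was fragmented with RNase T1, ends were extended by Klenow polymerase, and inserts were chosen by size, which bounds the tails that could be read. Tails are unnormalised means, with no value where the authors gave none. Whether counting used strand beyond the strand of each window, and so how antisense reads were told apart, is not stated in the labels or files.

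Windows were placed against the deposited gene table. Counts were tested with edgeR 4.0.16 (quasi-likelihood, TMM, filterByExpr, 13082 peaks, all 12 libraries) and tails with limma 3.58.1 (value and at least 10 reads in every library, 7068 peaks), with Benjamini-Hochberg adjustment and a threshold of 0.05. DESeq2 1.42.0 was an alternative. The edgeR and limma tests were tried on simulated data, and DESeq2 was not. Named peaks are the 12 most abundant, the 4 highest and 4 lowest changes per comparison (mean of at least 20 reads, no overlap), tail calls, the 3 longest and 3 shortest N2 tails (at least 50 reads), and the 5 nuclear peaks with the strongest difference among groups. peak2444 was added after its values were seen. One of the most abundant nuclear peaks is not reported here. The members, lists and rules were chosen with earlier results of these data known. Intervals cover counting error only. No genome of the ce10 build was used, so no window sequence is given.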

Additional observations from a re-analysis of the deposited data

How the results depend on the processing

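The counts of called peaks rested on few libraries. Leaving out 1 library at a time gave 4 to 22 expression calls for pos-1 RNAi (47 in all libraries), 0 to 46 for gld-3 RNAi (29), 35 to 48 for gld-2 RNAi (98), 54 to 78 for mex-5 RNAi (110), 1 to 2 for mex-6(pk440) (4) and 0 to 6 for pos-1 RNAi against gld-3 RNAi (9), with the lone sample assumed to vary like the other groups and more peaks passing the low-count filter. The single tail call of mex-5 RNAi became 0 (18 to 40 at an unadjusted p under 0.05 by limma). Fitting the 4 samples of a comparison alone gave 76 expression calls for pos-1 RNAi, 11 for gld-3 RNAi, 9 for mex-6(pk440) and 0 for pos-1 RNAi against gld-3 RNAi (38 at an unadjusted p under 0.05 by edgeR), and 0 tail calls for mex-5 RNAi (16 unadjusted), as did requiring a tail value in these 4 samples alone (17 unadjusted). A mean of at least 20 reads gave 70 calls for mex-5 RNAi and 134 for any difference among groups, on fewer peaks. DESeq2 gave 20 for mex-6(pk440), 19 of them lower, with its share over all peaks not given here.

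Same-numbered libraries deviated together in some groups but not in all, so the numbers were not taken as pairs: 8 of 15 correlations of same-numbered deviations exceeded 0.1 for expression (-0.18 to 0.53), among them all 6 between gld-3, gld-2, mex-5 RNAi and mex-6(pk440) (0.25 to 0.53), and 3 of 15 for tails (-0.14 to 0.23). A replicate block moved the count to 48 for gld-3 RNAi and 11 for mex-6(pk440), and to 62, 127 and 130 for pos-1, gld-2 and mex-5 RNAi.

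For tails, gld-2 RNAi had 2 calls at a minimum of 50 reads, 1 on log2 tails and 3 with libraries centred on their median. Log2 tails gave 2 for mex-5 RNAi, and centring gave 2 others in place of peak10061, and centring gave 1 for pos-1 RNAi against gld-3 RNAi. The share of reads differed among groups only without ribosomal and mitochondrial peaks (exact permutation p = 0.031), and the range of its group means ran from 0.608 to 1.37 percentage points without 1 library, the highest without mex-5 RNAi replicate 2 (0.654 in all). The tail difference from parented peaks was 1.30 nt for nuclear peaks alone, against -4.16 nt for all. The cause of these moves was not tested beyond the fewer samples or peaks in a setting.

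For the 44 named results, 385 of 482 alternatives kept direction and call, 97 lost the call, and 0 reversed. The call was lost in 82 of the 176 alternatives that left out 1 library and in 15 of the 306 others. Levels near 1 CPM rest on few reads, which limits the precision of their changes.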
